A study of Mus musculus with 15 samples.

Results

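The genes described here are 10 neuropeptide and granin genes, chosen by name out of 23329 genes counted in each tumor. They are Vip, Adcyap1, Npy, Cartpt, Gal, Penk and Sst, which encode neuropeptide precursors, and Chga, Chgb and Scg2, which encode granins. The list was drawn up because Vip was higher in neuroblastomas without Casp2, so the question was whether other secreted peptides followed it. A filter of over 1 CPM (reads per gene scaled to library size, with TMM factors) in at least 3 tumors kept 9 of the 10, and Sst did not pass it. Values of Vip between the neuroblastoma genotypes chose the list and are given as a description without a test.

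RNA of 15 tumors, 1 from each mouse, is described here. The paper sequenced 4 tumors per genotype and left out 1 EμMyc/Casp2-/- lymphoma because its expression made it a strong outlier, so that group holds 3. In Th-MYCN mice (Sv129/C57BL6), the tyrosine hydroxylase promoter drives human MYCN in sympathetic neuroblasts, while in EμMyc mice (C57BL/6) an enhancer of the immunoglobulin heavy chain switches on c-Myc in B cells. Lymphomas came from cervical lymph nodes, and neuroblastomas were paraspinal thoracic tumors picked for little or no visible blood supply. The groups were 4 Th-MYCN neuroblastomas (onset at 10 to 21 weeks), 4 Th-MYCN/Casp2-/- neuroblastomas (15 to 24 weeks), 4 EμMyc lymphomas (13 to 19 weeks) and 3 EμMyc/Casp2-/- lymphomas (8 to 12 weeks). Each tumor carries its oncogene, so no group is normal tissue, and single tumors are named by their labels, such as MYCN175 or MYCNC2ko118.

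Neuropeptides are made as long precursors, cut by convertases and stored with granins in dense-core vesicles, from which neurons and adrenal chromaffin cells release them on stimulation. Sympathetic neurons are best known for Npy, which is stored with noradrenaline, while Vip marks the cholinergic sympathetic neurons that supply sweat glands. Vip and Adcyap1 (the PACAP precursor) belong to one peptide family and act on related receptors that raise cAMP, and CREB, a factor activated by cAMP, binds the cAMP response element (CRE).

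The CRE is shown first because it is a sequence feature that the choice of genes did not use. RefSeq promoters (GRCm38.p6) were matched for 9 members, all but Penk, with 2 starts for Adcyap1. In the 250 bases before the start, 6 of these 9 genes held the letters TGACGTC on either strand, against 3.16% of 27025 genes with a promoter of the same length. Windows of 30 bases around the element are given 5′ to 3′ on the strand of the gene, with the element in capitals, so that its flanks can be compared.
Vip: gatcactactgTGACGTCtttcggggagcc
Adcyap1: gactaggatgcTGACGTCttttactgatac
Sst: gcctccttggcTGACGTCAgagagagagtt
Cartpt: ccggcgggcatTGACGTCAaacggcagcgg
Chgb: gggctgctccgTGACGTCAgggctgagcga
Scg2: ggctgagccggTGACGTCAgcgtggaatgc

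In GRCm38 the windows lie at chr10:5639128-5639157 (+) for Vip, chr17:93198915-93198944 (+) for Adcyap1, chr16:23890874-23890903 (-) for Sst, chr13:99900777-99900806 (-) for Cartpt, chr2:132781559-132781588 (+) for Chgb and chr1:79440076-79440105 (-) for Scg2. Sst, Cartpt, Chgb and Scg2 held the full palindrome TGACGTCA, which 1.77% of all genes held in such a window. Vip and Adcyap1 both held only its first 7 letters, followed by T. Counted back from the start, the element began at -48 in Sst, -68 in Scg2, -72 in Chgb, -79 in Vip, -91 in Adcyap1 (first start) and -112 in Cartpt. Chga held the shorter motif TGACG at -44, and none of the 5 motifs searched was found for Npy or Gal. This shorter motif is part of the longer ones and was in 19.8% of all genes. The AP-1 motif TGACTCA (5.16% of all genes) and the E-box CACGTG (6.86%) matched no member, and all 5 motifs were searched on both strands. For Sst, Cartpt, Chgb and Scg2 the GENCODE M21 model begins farther upstream than the RefSeq start, so their windows lie within the GENCODE gene. The whole window before the Vip start, chr10:5638968-5639217 on the + strand, is shown because Vip is the gene on which the list rests, again with the CRE letters in capitals.
Vip: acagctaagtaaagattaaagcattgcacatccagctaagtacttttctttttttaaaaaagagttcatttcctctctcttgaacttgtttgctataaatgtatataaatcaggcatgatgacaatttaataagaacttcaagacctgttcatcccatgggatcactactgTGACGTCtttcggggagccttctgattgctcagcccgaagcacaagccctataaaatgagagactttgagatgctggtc

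These matches are letters in a sequence and were not measured as binding.

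Libraries held 4940464 to 17638029 reads in the strand column used, and a count of 3 reads, taken as the floor, equals 0.173 to 0.586 CPM. The targeted gene was read first. Casp2 lay at 76.0 to 125 CPM in Th-MYCN and 39.6 to 80.2 CPM in Th-MYCN/Casp2-/- tumors, ranges that overlap slightly, and at 125 to 203 CPM in EμMyc and 51.9 to 76.1 CPM in EμMyc/Casp2-/- tumors, which do not overlap. Reads remained on the gene in every Casp2-/- tumor, so this check is one of level and not of presence. The 13 noradrenergic markers together reached 5139.6 to 8549 CPM in the neuroblastomas and 15.3 to 42.1 CPM in the lymphomas, and the 6 B cell markers reached 5.60 to 21.3 and 1804 to 4308 CPM.

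Vip, which encodes vasoactive intestinal peptide (chr10:5639218-5647617, GRCm38, ENSMUSG00000019772.5), was nearly silent in the Th-MYCN tumors. It had 0 CPM in MYCN175, 0.799 in MYCN235, 2.48 in MYCN332 and 2.35 in MYCN391. In the Th-MYCN/Casp2-/- tumors it had 123 CPM in MYCNC2ko118, 31.2 in MYCNC2ko144, 17.7 in MYCNC2ko176 and 102 in MYCNC2ko180. The groups did not overlap, as for 2.94% of all tested genes in this direction, and the lowest Casp2-/- tumor stood above the highest Th-MYCN tumor. In reads this was 0 to 43 against 184 to 1712 per tumor, so the Casp2-/- values do not rest on a few reads. The fitted difference was 5.60 ± 0.88 (log2, SE), or 48.4-fold, and is a description because it chose the gene. With onset as a covariate it was 6.70 (log2). Within the Casp2-/- group, the pair with onset at 15 weeks had the highest levels and the tumor with onset at 24 weeks the lowest. In bulk tumors, more cells with a transcript and more transcript per cell cannot be told apart.

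**Figure D1:**
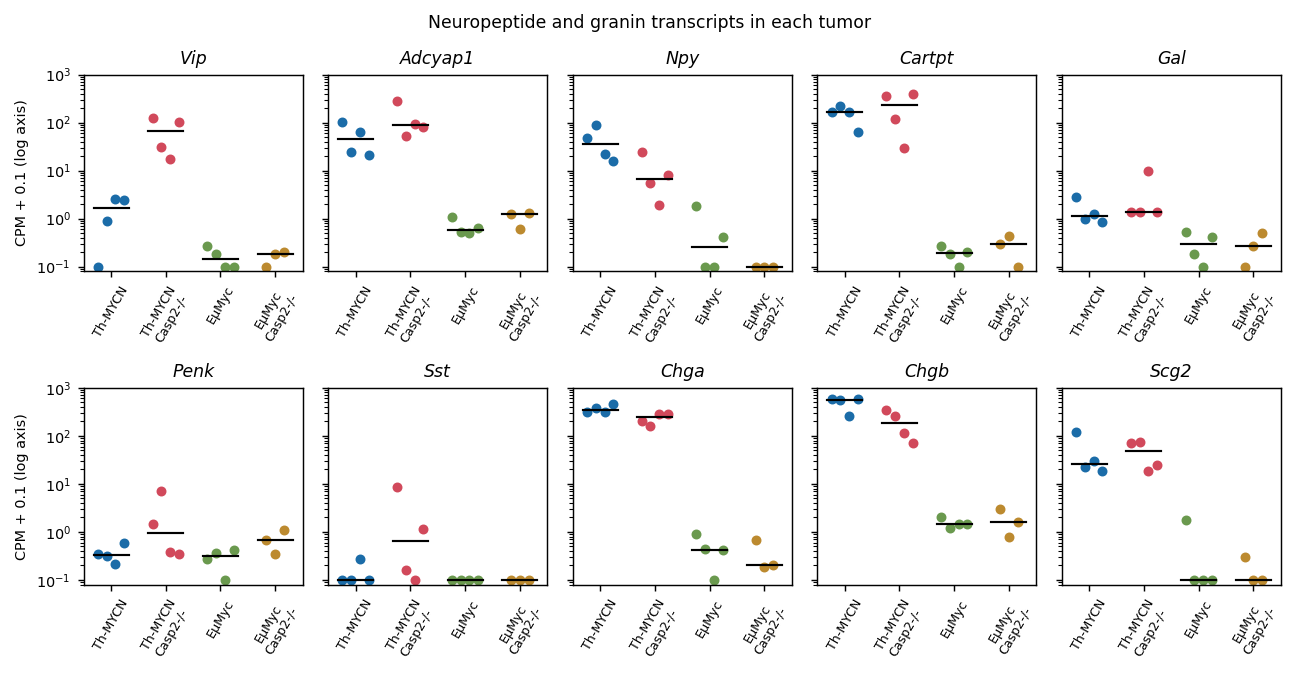
CPM of the 10 genes in each tumor (log axis, 0.1 added so that zeros can be drawn), with 1 point per tumor, a bar at the median of each group, and the 4 groups along the horizontal axis. Vip is the gene whose 4 Th-MYCN/Casp2-/- tumors (17.7 to 123 CPM) stand farthest from the 4 Th-MYCN tumors (0 to 2.48 CPM), while no lymphoma exceeds 2.93 CPM in any panel.

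Of the other 8 tested members, 0 were called between the neuroblastoma genotypes by edgeR's likelihood ratio test (LRT), where a call needs a Benjamini-Hochberg FDR under 0.05 over all 14880 genes and a change over 2-fold. The quasi-likelihood test (QLF) and DESeq2 also called 0 of the 8. Over all tested genes the LRT called 0.813% (0.188% up and 0.625% down), QLF 0.0336% and DESeq2 0.78%, so 0 of 8 is near the background share. Before adjustment, 5 of the 8 had an LRT p under 0.05 and 4 of 8 a QLF p under 0.05, against 7.78% and 6.77% of all tested genes. These 5 did not share a direction, since Adcyap1 and Penk had positive and Npy, Chga and Chgb negative differences. Each of these differences is reported below as not called.

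Adcyap1 (chr17:93199017-93206537) encodes the relative of Vip with the same type of CRE. It had 103, 24.5, 65.0 and 21.4 CPM in the Th-MYCN tumors, in the order MYCN175, MYCN235, MYCN332 and MYCN391, and 278, 52.5, 93.0 and 80.9 CPM in MYCNC2ko118, MYCNC2ko144, MYCNC2ko176 and MYCNC2ko180. The groups overlap, and MYCNC2ko118 was the highest tumor for both Adcyap1 and Vip. The difference was 1.24 ± 0.56 (log2, SE) with an LRT FDR of 0.508. Without MYCN175 and MYCNC2ko176 it was 1.89 with an FDR of 0.141.

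Npy (chr6:49822710-49829507), the main peptide of noradrenergic sympathetic neurons, lay on the other side. In the same order of tumors it had 48.6, 89.4, 22.4 and 15.8 CPM in the Th-MYCN group and 24.8, 5.40, 1.83 and 7.96 CPM in the Th-MYCN/Casp2-/- group. Only MYCNC2ko118 stood within the Th-MYCN range, and the other 3 Casp2-/- tumors lay below it. The difference was -2.14 ± 0.99 (log2, SE) with an LRT FDR of 0.576 and was not called. Npy and Casp2 lie 7.54 Mb apart on chromosome 6.

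Cartpt (chr13:99898489-99901091), the CART precursor, ranked among the most abundant members in both genotypes. It had 168, 218, 166 and 62.9 CPM in the Th-MYCN tumors and 349, 117, 29.0 and 395 CPM in the Th-MYCN/Casp2-/- tumors. The Casp2-/- tumors thus fell on both sides of the Th-MYCN range, with MYCNC2ko118 and MYCNC2ko180, the same pair that was highest in Vip, above it. The difference of 0.53 ± 0.64 (log2, SE) had an LRT FDR of 1.

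Gal, Penk and Sst were rare transcripts, each highest in a single Casp2-/- tumor. Gal (galanin precursor) had 0.741 to 2.75 CPM in the Th-MYCN tumors and 1.29 to 1.30 CPM in 3 Casp2-/- tumors, but 9.64 CPM in MYCNC2ko176. Its difference of 1.28 ± 0.83 (log2, SE, LRT FDR 0.871) turned to -0.084 without that tumor. Penk (proenkephalin) had 0.115 to 0.494 CPM in Th-MYCN tumors, and 1.37 CPM in MYCNC2ko118 and 7.13 CPM in MYCNC2ko144, with 0.289 and 0.244 CPM in the remaining Casp2-/- tumors, which are at 3 reads. The Penk difference was 3.04 ± 0.98 (log2, SE) with an LRT FDR of 0.154. Sst (somatostatin precursor) had 116 reads in MYCNC2ko118 and 13 in MYCNC2ko180, 1 in MYCNC2ko144 and 0 in MYCNC2ko176, and in the Th-MYCN tumors 3 reads in MYCN332 and 0 in the others. With no filter on low counts the LRT FDR of Sst was 0.283. Each rare peptide had its highest level in a different Casp2-/- tumor, Sst in MYCNC2ko118, Penk in MYCNC2ko144 and Gal in MYCNC2ko176.

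The granins, which pack peptides into dense-core vesicles, were not called, and the fitted differences of all 3 were at or below 0. Chga (chromogranin A, chr12:102554969-102565028) had 311, 386, 316 and 456 CPM in the Th-MYCN tumors and 206, 158, 288 and 282 CPM in the Th-MYCN/Casp2-/- tumors. Every Casp2-/- tumor was below every Th-MYCN tumor, but the gap was small. The difference was -0.65 ± 0.27 (log2, SE) with an LRT FDR of 0.381. Chga was the only one of the 8 members without overlap, and 3.68% of all tested genes were separated in the same direction.

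Chgb (chromogranin B, chr2:132781278-132795079) had 578, 545, 262 and 579 CPM in the Th-MYCN tumors and 350, 257, 113 and 69.9 CPM in the Th-MYCN/Casp2-/- tumors. MYCN332 fell between MYCNC2ko118 and MYCNC2ko144, so the groups overlap. The difference was -1.31 ± 0.45 (log2, SE) with an LRT FDR of 0.189 and a QLF FDR of 0.434. Scg2 (secretogranin II) had 122, 22.3, 29.7 and 18.8 CPM against 71.0, 75.7, 18.9 and 24.8 CPM. MYCN175 was the highest of all tumors for Scg2, and the difference of -0.02 ± 1.03 (log2, SE) moved to 1.03 without it, with an LRT FDR of 1 in both fits.

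**Figure D2:**
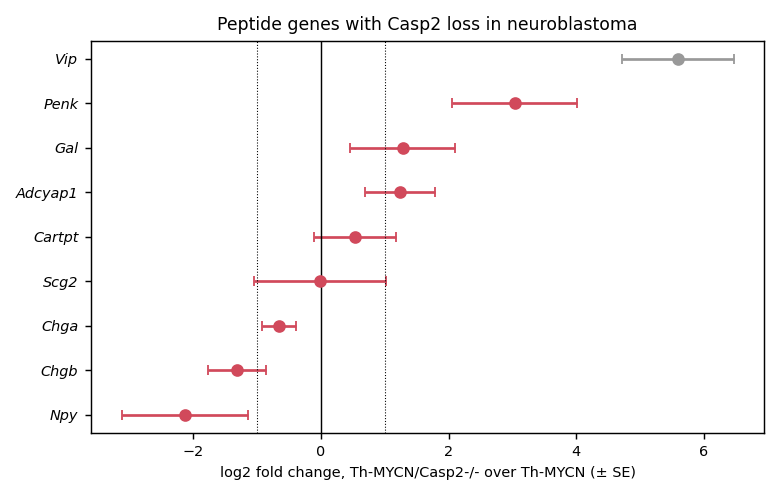
Log2 fold change of Th-MYCN/Casp2-/- over Th-MYCN for the 9 tested members, with points for the fitted value, bars for its SE and dotted lines at 2-fold. Vip (gray, 5.60, used to choose the list and not tested) stands apart, while the red points run from -2.14 for Npy to 3.04 for Penk and none was called.

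To set the genes side by side, levels were divided by exon length (GENCODE M21) and are given as mean CPM per kilobase ± SD over 4 tumors. The annotation behind the counts is not given, so these lengths may differ from those of the counted genes and the order is approximate. In Th-MYCN tumors Chgb (179 ± 56.1), Chga (133 ± 24.9), Cartpt (120 ± 51.0) and Npy (77.8 ± 59.0) led, followed by Scg2 (19.2 ± 19.7) and Adcyap1 (14.1 ± 10.2). Neighbors in this order had overlapping ranges over tumors. Gal (1.75 ± 1.18) came next without overlap with Adcyap1, then Vip (0.414 ± 0.355), whose highest tumor at 0.729 lay below the lowest Gal value at 0.940. Penk (0.164 ± 0.098) and Sst (0.060 ± 0.120) overlapped Vip at the bottom. In Th-MYCN/Casp2-/- tumors Cartpt (174 ± 139) came first and Vip ranked 5 at 20.2 ± 15.3, between Adcyap1 (33.4 ± 27.2) and Scg2 (18.9 ± 11.9), with Npy at rank 7 (17.7 ± 18.0). Gal (4.29 ± 5.30), Sst (3.29 ± 5.58) and Penk (1.38 ± 2.01) followed, and all neighbors in that order had overlapping ranges.

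Summed CPM of the 10 genes was 865 to 1334 in Th-MYCN and 572 to 1413 in Th-MYCN/Casp2-/- tumors, so the total overlapped. The granins supplied 70.2% to 91.0% of that sum in the Th-MYCN group and 39.0% to 73.5% in the Casp2-/- group. Vip supplied 0% to 0.287% of the sum without, and 3.10% to 10.6% with, Casp2 loss. Chgb or Chga was the largest contributor in all 8 tumors except MYCNC2ko180, where it was Cartpt.

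Other genes of the peptide pathway came from 8 lists, described by counts and medians, with the median over all tested genes at -0.00 (log2). Of 54 other neuropeptide precursors, 19 passed the filter and 0 were called by the LRT, QLF or DESeq2 (2 with an LRT p under 0.05 before adjustment, a share to be read here and for each list against the 7.78% of all tested genes), with a median difference of -0.13. Adm (adrenomedullin), a vasodilator peptide, had the smallest p, with 21.8 ± 10.5 CPM in Th-MYCN and 7.96 ± 3.46 in Th-MYCN/Casp2-/- tumors (SD, n = 4; log2 difference -1.45, LRT FDR 0.114). Without MYCN175 its FDR was 0.00825, and both Adm and Pnoc, the nociceptin precursor described further on, were called. Nucb2, the nesfatin precursor, had 32.7 ± 5.57 and 45.5 ± 4.42 CPM without overlap (log2 difference 0.48, LRT FDR 0.514).

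Granins, processing enzymes and vesicle genes make up the machinery around the peptides. The 4 other granins had differences of -0.45 to 0.18 (median -0.03) with 0 called and 0 with an LRT p under 0.05. Scg3, a granin that tethers cargo to vesicle membranes, had 195 ± 19.7 and 176 ± 27.4 CPM, and Scg5, the partner of convertase 2, had 97.4 ± 17.6 and 110 ± 18.3 CPM (SD, n = 4). Among 12 tested peptide processing enzymes 0 were called and 0 had an LRT p under 0.05 (median 0.14), and Cpe, the carboxypeptidase that trims cut peptides, had 360 ± 50.5 and 486 ± 79.0 CPM (LRT FDR 0.699). Pcsk6, a convertase, had 4.95 ± 2.44 and 12.6 ± 10.2 CPM (LRT FDR 0.749). Of 28 dense-core vesicle genes 0 were called by any of the 3 tests and 7 had an LRT p under 0.05, against 7.78% of all tested genes, with a median of -0.15. Differences among them ran from -2.37 for Baiap3 to 3.58 for Cadps2 (log2, LRT FDR of Cadps2 0.253). Baiap3, which acts in vesicle trafficking, had 42.7 ± 36.1 and 8.24 ± 3.24 CPM (LRT FDR 0.107), and the synaptobrevin Vamp2 had 431 ± 92.9 and 615 ± 37.5 CPM (LRT FDR 0.165). Baiap3 was called without MYCN175 (FDR 0.0127), the 1 vesicle gene called in that fit.

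Peptide receptors were mostly below the filter, with 5 of 19 tested, 0 called and 2 with an LRT p under 0.05, both negative. Adcyap1r1, the PACAP receptor, was the most abundant of them. It had 323, 444, 427 and 458 CPM in the Th-MYCN tumors and 281, 183, 182 and 223 CPM in the Th-MYCN/Casp2-/- tumors. The groups did not overlap, and the log2 difference of -0.93 had an LRT FDR of 0.0900, short of the threshold. Sstr1, a somatostatin receptor, had 0, 106, 18 and 59 reads in the Th-MYCN tumors and 5 reads in MYCNC2ko144 alone among the Casp2-/- tumors (LRT FDR 0.175), and Sstr1 was called without MYCN175 (FDR 0.00218) and without MYCNC2ko144 (FDR 0.0462). Vipr1, a receptor for Vip, had 0.679 to 1.73 CPM in Th-MYCN and 0.482 to 1.87 CPM in Th-MYCN/Casp2-/- tumors, which overlap.

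A list of 20 cAMP and CREB genes held response genes and also factors and coactivators of that pathway, such as Creb1 and Crtc1. Of these 20, 1 was called by the LRT, Bdnf, a neurotrophin with a CREB-bound promoter. The median of the list was 0.04, which is not a median of response genes alone. Bdnf had 44.7, 35.7, 44.1 and 18.0 CPM in the Th-MYCN tumors and 77.2, 58.9, 135 and 94.1 CPM in the Th-MYCN/Casp2-/- tumors. The groups did not overlap, with a log2 difference of 1.36 ± 0.37 (SE), an LRT FDR of 0.0402, a DESeq2 FDR of 0.0293 and a QLF FDR of 0.278. The Bdnf call was lost when any one of 6 of the 8 tumors (all but MYCN175 and MYCNC2ko144) was left out, with an FDR of up to 0.221. Of 14 tested genes of the gp130 cytokine pathway, which induces Vip in sympathetic neurons, 0 were called by any test and 1 had an LRT p under 0.05. That gene was Cntfr, the receptor subunit for ciliary neurotrophic factor, with 216 to 314 CPM in Th-MYCN and 35.3 to 176 CPM in Th-MYCN/Casp2-/- tumors (log2 difference -1.37, LRT FDR 0.262). Jak1, a kinase of the pathway, had 103 ± 5.64 and 138 ± 18.3 CPM (SD, n = 4; LRT FDR 0.681).

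Cholinergic genes are the company in which Vip is found in normal sympathetic neurons. Of the 8 genes on that list, Chat and Slc5a7 did not pass the filter. The 6 tested had a median of -0.07, which is not a median of cholinergic genes alone, since the list also held Hmx1 (-2.87). Of the 6, 0 were called and 1 had an LRT p under 0.05. That gene was Gfra2, the neurturin receptor subunit, at 11.5 ± 3.78 and 31.5 ± 17.9 CPM (SD, n = 4; LRT FDR 0.485). Slc18a3, the vesicular acetylcholine transporter, had 38.1 CPM in MYCN175 and 0.436 to 1.17 CPM in the other Th-MYCN tumors, and 106 CPM in MYCNC2ko176 and 1.30 to 11.2 CPM in the other Casp2-/- tumors. Pnoc, the nociceptin precursor, had 154 CPM in MYCN175 and 2.72 to 5.59 CPM in the other Th-MYCN tumors, and 509 CPM in MYCNC2ko176 and 3.96 to 35.1 CPM in the other Casp2-/- tumors. The same tumor of each genotype was high in both genes, and these were the tumors of latest onset in their groups, at 21 and 24 weeks. Without MYCN175, Pnoc (LRT FDR 0.0314) and Slc18a3 (FDR 0.0468) were called as higher in the Casp2-/- tumors, so this tumor decided both. The pair was also the lowest in Vip of their groups, with 0 and 17.7 CPM. Hmx1, a factor of sympathetic and cranial neurons, was at 105 CPM in MYCN175 and at 7.42 CPM or less in the other 7 tumors. Without this pair of tumors the Vip difference was 5.50 (log2) and 0 of the other 8 members were called.

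**Figure D3:**
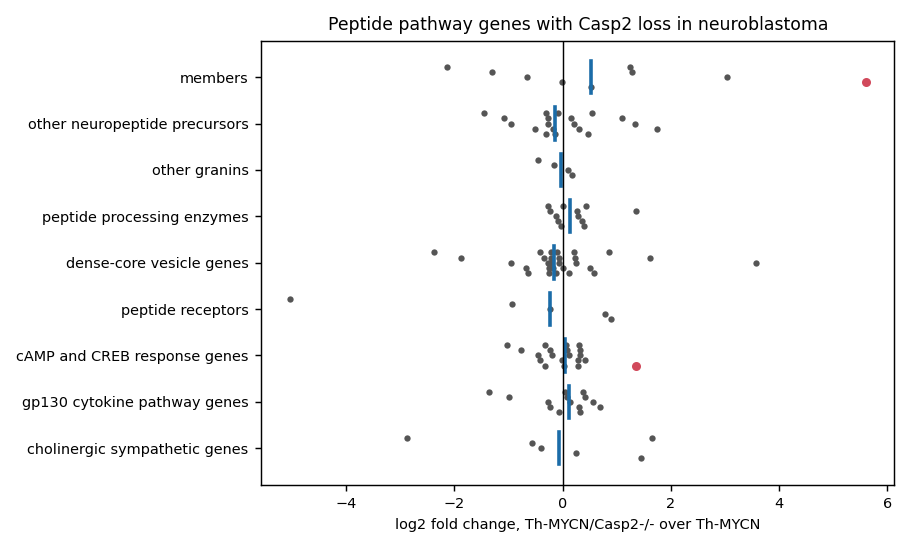
Log2 fold change of Th-MYCN/Casp2-/- over Th-MYCN for each tested gene of the member list and 8 related lists (1 point per gene, red where called by the LRT, a blue bar at the median of the list). The 2 red points are Bdnf at 1.36 and Vip at 5.60, which chose the list, so the color of Vip is a description and not a test. Medians of the 8 related lists lie between -0.24 and 0.14.

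Markers of the sympathetic lineage were present in all 8 neuroblastomas. Of 13 noradrenergic markers 1 was called, Gata2, a transcription factor of sympathetic neurons, with 176 to 343 CPM in Th-MYCN and 90.8 to 105 CPM in Th-MYCN/Casp2-/- tumors (log2 difference -1.44, LRT FDR 4.96e-05, QLF FDR 0.0812). Th, the rate-limiting enzyme of catecholamine synthesis and the gene whose promoter drives the transgene, had 314, 1075, 1175 and 1447 CPM in the Th-MYCN tumors and 227, 135, 75.9 and 246 CPM in the Th-MYCN/Casp2-/- tumors. The groups did not overlap, and the log2 difference of -2.55 ± 0.69 (SE) had an LRT FDR of 0.0546. Th was called when the fit held just the 8 neuroblastomas (FDR 8.66e-05) and when MYCN175 was left out (FDR 0.0114). Of 3 tested chromaffin markers 1 was called, Slc18a1, the vesicular monoamine transporter of chromaffin cells, with 12.2 to 28.8 and 37.2 to 89.7 CPM (log2 difference 1.71, LRT FDR 0.00392, QLF FDR 0.174). Slc18a1 was not called without MYCN391 (FDR 0.0696) or MYCNC2ko144 (FDR 0.0543). The other 2 tested chromaffin markers, Pnmt and Epas1, had negative differences and were not called. The median of the 3 was -0.937 (log2), and 0.188% of all tested genes were called higher.

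Of 5 endothelial markers 2 were called, Pecam1 and Kdr, with log2 differences of -1.20 and -1.46 (LRT FDR 0.000552 and 0.0308, QLF FDR 0.0812 and 0.220). All 5 differences were negative, 4 without overlap of the groups and 4 with an LRT p under 0.05. Of all tested genes 0.625% were called lower, 3.68% were lower without overlap and 7.78% had such a p. The call of Kdr was lost without any one of 7 of the 8 tumors (all but MYCN175), with an FDR of up to 0.175. Summed, the 5 markers had 50.0 to 79.8 CPM in Th-MYCN and 20.7 to 35.3 CPM in Th-MYCN/Casp2-/- tumors, none of them at 0 throughout a group. Of 3 tested Schwann cell markers 0 were called by the LRT, QLF or DESeq2 and 2 had an LRT p under 0.05, with log2 differences of 0.72 for Sox10, 1.70 for S100b and 2.18 for Fabp7 (LRT FDR 0.949, 0.277 and 0.338). They summed to 12.2 to 35.8 CPM in Th-MYCN and 21.8 to 95.2 CPM in Th-MYCN/Casp2-/- tumors, and none was at 0 throughout a group. Of 3 sensory neuron, 1 adrenal cortex, 4 fibroblast, 5 macrophage, 5 T cell and 6 B cell markers tested, 0 were called by the LRT, QLF or DESeq2 (3 in all with an LRT p under 0.05), and of 4 mast cell markers 0 were tested. The summed levels overlapped between the genotypes for each of these lists. Sensory neuron markers summed to 6.75 to 24.0 CPM in Th-MYCN and 4.47 to 20.6 CPM in Th-MYCN/Casp2-/- tumors, and adrenal cortex markers to 21.5 to 26.5 and 18.4 to 28.8 CPM. Mrgprd (sensory) was at 0 in all 8 tumors, Prdm12 (sensory) in the Th-MYCN group, and Cyp11b1 and Cyp21a1 (cortex) in the Casp2-/- group. Fibroblast markers summed to 153 to 254 and 135 to 329.8 CPM, and macrophage markers to 468 to 683 and 273 to 649 CPM. T cell markers summed to 6.05 to 7.91 and 5.04 to 10.97 CPM, B cell markers to 5.60 to 19.0 and 13.5 to 21.3 CPM, and chromaffin markers to 49.7 to 104.7 and 68.2 to 125 CPM. Mast cell markers reached at most 0.145 and 0.321 CPM, with Mcpt4 and Cma1 at 0 in the Th-MYCN group. The part of these cell types in the level of Vip was not tested.

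**Figure D4:**
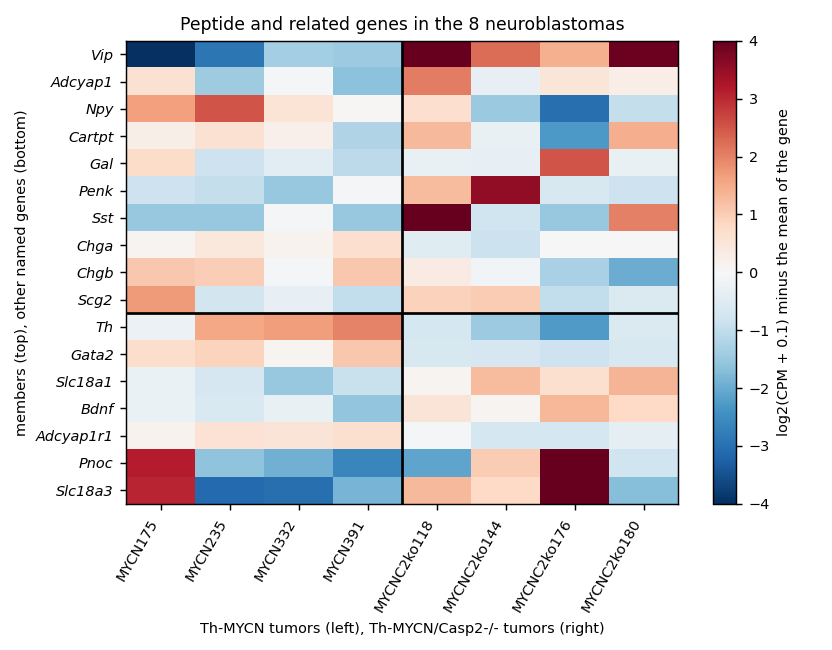
Log2(CPM + 0.1) of the 10 members and 7 related genes in each of the 8 neuroblastomas, minus the mean of each gene, with Th-MYCN tumors to the left of the vertical line and Th-MYCN/Casp2-/- tumors to its right. Vip is red in all 4 Casp2-/- tumors (17.7 to 123 CPM) and blue in all 4 Th-MYCN tumors (0 to 2.48 CPM), whereas Sst, Penk and Gal are each darkest in a different Casp2-/- tumor, and Pnoc and Slc18a3 are dark red in MYCN175 and MYCNC2ko176.

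The genes most like Vip and Npy were found by the root mean square distance between scaled log2 CPM profiles over the 8 neuroblastomas, as a description of likeness. The 5 nearest to Vip were Tmem86b (0.194), Kcna1 (0.289), Fat3 (0.294), Cadm4 (0.301) and Stim1 (0.311), and 4 of these 5 were also nearest when reads of either strand were used. Kcna1, a voltage-gated potassium channel, had 1.47 to 2.84 CPM in Th-MYCN and 6.62 to 12.8 CPM in Th-MYCN/Casp2-/- tumors. Fat3, an atypical cadherin, had 0 to 0.185 and 0.675 to 4.22 CPM. Because the profiles were scaled, likeness does not measure the size of a difference. Tmem86b, Cadm4 and Stim1 had log2 differences of just 0.46, 0.36 and 0.46 and were not called. No member or listed peptide gene was among the 5 nearest to Vip. With just 5 places for 14880 tested genes, that absence does not show whether peptide genes follow Vip. The 5 nearest to Npy were Snord2 (0.315), C2cd4b (0.320), Shroom4 (0.324), Cdkl1 (0.347) and Wwc1 (0.350), of which 1 remained with reads of either strand.

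In the lymphomas the members were near or below the floor. Vip had 0 to 2 reads per tumor in the strand column used, and 1 to 10 reads on either strand. Npy had 20 reads in EuMyc614, 3 in EuMyc835 and 0 in the other 5 lymphomas. Scg2 had 19 reads in EuMyc614, 1 in EuMycC2ko215 and 0 in the rest. EuMyc614 also had 38 reads of Th and the highest noradrenergic marker sum of the lymphomas at 42.1 CPM, and the source of these reads was not tested. Chgb was the most counted member in every lymphoma, with 8 to 22 reads, and Adcyap1 had 5 to 12.

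Reads of the libraries fell evenly on both strand columns, but those of Vip, Adcyap1 and Chgb in the lymphomas did not. Of 23 Vip reads, 5 (21.7%) were in the second strand column, which was used, and 18 in the other. By contrast, 50 of 54 Adcyap1 reads (92.6%) and 103 of 133 Chgb reads (77.4%) were in the second strand column, against 50.7% and 47.4% in the neuroblastomas. The lymphoma levels of Adcyap1 and Chgb are therefore lower, and that of Vip higher, by the other column, and with 54 and 133 reads over 7 tumors Adcyap1 and Chgb are of low precision.

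Between the lymphoma genotypes 0 of 9 members were called by the LRT, QLF or DESeq2 (1 with an LRT p under 0.05, Npy), against 1.44%, 0.141% and 1.36% of all tested genes called by these tests and 9.89% with such a p. Npy had a fitted difference of -5.72 (log2, LRT FDR 0.104), which rests on the 20 reads in EuMyc614 and 3 in EuMyc835, and 2 of 4 EμMyc and all 3 EμMyc/Casp2-/- lymphomas were at 0. Npy was called without EuMyc743b (LRT FDR 0.0490), and without EuMyc614 the FDR was 0.632. The summed CPM of the 10 genes was 1.73 to 8.05 in EμMyc and 2.09 to 5.67 in EμMyc/Casp2-/- lymphomas.

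Between the tumor types, 7 of the 8 tested members other than Vip were called lower in lymphomas in both genotypes. All members but Chgb had over 1 CPM in at most 2 lymphomas and would not have passed the filter on the lymphomas alone, so the count is a description from which nothing is read, beside the 28.5% of all tested genes called lower with Casp2 and 27.6% without it. The exception was Penk, with log2 differences of -0.52 (LRT FDR 0.684) and -1.87 (LRT FDR 0.128). Gal lost its call with Casp2 when MYCN175 was left out (LRT FDR 0.0506). The differences with Casp2 ran from -2.69 for Gal to -10.59 for Cartpt. For Vip the difference of lymphoma against neuroblastoma was -4.22 ± 1.21 with Casp2 and -9.73 ± 1.41 without it (log2, SE). The test of the interaction itself called 0 of the 8 members other than Vip, against 0.914% of all tested genes, and 1 of the 8, Chgb, had an LRT p under 0.05, against 8.96%. QLF and DESeq2 also called 0 of 8, against 0.0538% and 0.827% of all tested genes. For Vip the interaction was -5.51 ± 1.86 (log2, SE), given as a description since it shares the neuroblastoma tumors that chose the gene. An effect of Casp2 loss on Vip that differs between the tumor types could not be measured with 0 to 2 reads per lymphoma in the column used.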

How the data were processed

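Poly(A) RNA of each tumor was sequenced as single-end reads of 50 bases. Per the submitters' processing notes, FastQC, STAR and edgeR were used with mm10/GRCm38, and their versions and the annotation release are not given in the sources used here. The authors deposited counts of reads per gene for either strand and each strand, not normalized. The second strand column was used. It holds 48.8% to 49.3% of the stranded reads, so about as many reads lie in the other column, and 66.4% to 71.8% of its total falls in rows that name no gene, which were left out. The columns of either strand had 33.0% to 43.8% in such rows.

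Tests were run in edgeR 4.0.16 and DESeq2 1.42.0 (with limma 3.58.1, under R 4.3.3). Genes over 1 CPM in at least 3 tumors (14880) entered one negative binomial model of 4 group means with TMM factors, tested by the LRT, as in the tables of the study. Genes were called at an FDR (Benjamini-Hochberg) below 0.05 with a change beyond 2-fold either way. CPM are scaled by TMM. On simulated data in the neuroblastoma design (14880 genes), a gene was counted at an FDR under 0.05 alone, without the 2-fold threshold of the calls. The LRT then recovered 84% of 100 genes changed by 2 on the log2 scale and 36% of 100 changed by 1. Of its 148 calls 28 were false, while QLF recovered 68% and 23% with 4 of 95 false. These shares were not measured under the full rule.

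The members and lists were chosen with earlier results of these data known. Named genes are all members, Casp2, from each list the called genes or else the 2 with the smallest LRT p, from marker lists the most abundant gene, and the 5 nearest to Vip and to Npy. Most marker genes that the rule names but that were not called are given only as sums of their list. Some genes of the marker lists are not reported here. Pnoc, Slc18a3, Th and Vipr1 were named after their values were seen. Groups come from the sample labels and sex from the sample table of the study. Each tumor is from 1 mouse. Pairs of tumors in a group differed by more than counting error (chi-square per degree of freedom 16.8 to 76.9 over 21 pairs). Floors cover counting error only, while the SE of a fitted difference also includes the spread between tumors, through the dispersion of the negative binomial model. Positions are GENCODE M21, and promoters are RefSeq, both GRCm38. Other tests, scalings, filters, strands, covariates and left-out tumors were tried as alternatives.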

Additional observations from a re-analysis of the deposited data

Results flagged for a closer look

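Of 92 groups of 4 tumors examined, 14 held 1 tumor that stood apart from the rest of its group by Dixon's test. Chance would set apart about 1 in 20 groups if values were normally distributed. CPM were not shown to be so and some groups hold zeros, so nothing is read from the 14 against that rate. Among the members these were Sst in MYCNC2ko118 (8.35 CPM, others at most 1.06), Gal in MYCNC2ko176 (9.64 CPM, others at most 1.30), Penk in MYCNC2ko144 (7.13 CPM, others at most 1.37), Chgb in MYCN332 (262 CPM, others at least 545), Scg2 in MYCN175 (122 CPM, others at most 29.7) and Scg2 in EuMyc614 (1.66 CPM, others at 0). MYCN175 also stood apart in Hmx1 (105 CPM), Pnoc (154 CPM) and Slc18a3 (38.1 CPM), and MYCNC2ko176 in Pnoc (509 CPM), Slc18a3 (106 CPM) and Kdr (2.41 CPM). Of the 14, 5 were in Pnoc, Slc18a3 and Vipr1, genes named after their values were seen, and 9 in the others. The remaining ones were Sstr1 in MYCNC2ko144 (0.321 CPM, 5 reads) and Vipr1 in MYCN391 (0.679 CPM).

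The LRT of the interaction (lymphoma minus neuroblastoma, log2) called 6 other named genes, against 0.914% of all tested genes. The values were -1.41 for Nucb2 (FDR 0.00802), 2.04 for Scg3 (FDR 0.0130), 4.12 for Baiap3 (FDR 0.0278), 1.42 for Pecam1 (FDR 0.0106), -6.57 for Kcna1 (FDR 0.00970) and -5.46 for Fat3 (FDR 0.0452). By QLF the FDR of these genes ran from 0.0613 to 0.378, so none passed that test. Lymphoma reads were few, in total 9 in EμMyc and 0 in EμMyc/Casp2-/- tumors for Kcna1, 7 and 3 for Fat3, and 16 and 36 for Scg3. Baiap3 was high in 1 EμMyc/Casp2-/- lymphoma, EuMycC2ko215 (19.3 CPM), with 2.34 CPM in EuMycC2ko239 and 2.12 CPM in EuMycC2ko245. Kcna1 and Fat3 were picked for profiles like that of Vip over the neuroblastomas, so their separation there comes with that choice. Nucb2, Scg3 and Baiap3 were named for a small LRT p between the neuroblastoma genotypes, and Pecam1 because it was called there. The interaction uses those same neuroblastomas, so the values of all 6 are a description. No member was among the 6.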

How the results depend on the processing

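Of the members other than Vip, 0 were called between the neuroblastoma genotypes under every alternative tried. The Vip difference, a description because it chose the list, ran from 5.15 to 6.02 (log2) as single tumors were left out. In the other alternatives it ran from 5.43 to 6.70. Between tumor types 8 members with Vip counted were called, except with Casp2 in a fit of only the tumors compared (6) and without MYCN175 (7, with Gal at an FDR of 0.0506), and without Casp2 when low counts were not filtered (9). No paired analysis was possible because the labels give mouse names and no shared replicate numbers. In lymphomas 0 to 1 members were called as single tumors were left out. In the interaction no member other than Vip was called under any alternative. With reads of either strand the Vip interaction was -6.18 (log2), a description since its values chose the list. Between neuroblastomas, leaving out single tumors moved the called genes to 0 to 2 for other neuropeptide precursors, and 0 to 1 for dense-core vesicle, receptor, cAMP and CREB, and cholinergic genes. With onset as a covariate 1 processing enzyme, 1 vesicle gene and 1 gp130 gene were called, and with sex 1 vesicle gene. With only the tumors compared the calls were 2 vesicle, 2 cAMP and CREB and 1 cholinergic gene. QLF and reads of either strand each called 0 cAMP and CREB genes. Leaving out the tumor with the highest Pnoc in each neuroblastoma group, an alternative chosen after seeing the data, called 1 precursor, 1 receptor and 0 cAMP and CREB genes. The causes of these moves were not tested.

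No reversed difference was called under the main test. Without that pair Scg2 was at 1.28, Hmx1 at 1.81 and Vipr1 at 0.068 (log2), and with onset Pnoc was at -0.62. With reads of either strand, Vip in lymphomas was at -0.75, Gal in lymphomas at -0.36 and the Chga interaction at 0.41. As single tumors were left out, neuroblastoma differences ran from -0.084 to 1.86 for Gal, -0.32 to 1.03 for Scg2, -3.48 to 2.43 for Hmx1, -1.35 to 5.04 for Pnoc, -0.56 to 5.50 for Slc18a3 and -0.52 to 0.017 for Vipr1. Lymphoma differences ran from -0.31 to 1.06 for Vip, -0.91 to 0.71 for Gal, -0.40 to 0.60 for Chgb, -5.54 to 2.38 for Scg2 and -0.27 to 1.54 for Cartpt. The interaction ran from -2.20 to 0.15 for Gal, -1.09 to 0.18 for Adcyap1, -1.20 to 0.54 for Chga, -5.51 to 2.41 for Scg2 and -0.80 to 1.00 for Cartpt.

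Over all genes the LRT called 121 between the neuroblastoma genotypes, QLF 5 and DESeq2 116. A fit of just those tumors called 277, and onset as a covariate 290. With 4 tumors a group, the LRT recovered 36 of 100 genes simulated with a 2-fold change, at an FDR under 0.05 alone. The 2-fold threshold can only lower that count, so a member that was not called is not shown to be equal. Depth limits all members in the lymphomas.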
